A study of Drosophila melanogaster with 2 samples.

Results

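Shared promoters are stretches of DNA where the transcription of neighbouring genes begins so close together that a single bound factor lies near all of their starts. The 562 regions described here are the peaks of ERR, the fly oestrogen-related receptor, whose summits lay within 500 bp of annotated transcript starts of 2 or more different protein-coding genes. They were 562 of 2892 peaks in all and 562 of the 1710 peaks with a summit within 500 bp of any such start, or 32.9% (95% Wilson interval 30.7 to 35.1%). The other 1148 promoter peaks lay near the starts of 1 gene, and 1182 peaks lay away from starts. Among the 2892 peaks membership rested on position alone, so signal, orientation, motifs and replicate values did not separate these regions from the rest. Start spacing and distance from the summit are bounded by the rule, which takes starts within 500 bp of the summit. The 2892 peaks themselves were picked by agreement between replicates and have the highest pooled signals, so both entered the choice of regions before position did.

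The data came from whole Drosophila melanogaster embryos of both sexes, aged 0 to 24 h, of a transgenic line that carries ERR with green fluorescent protein (eGFP) fused to its C-terminus. Chromatin was sonicated, precipitated with an antibody against the tag and sequenced (ChIP-seq), in 2 biological replicates numbered 2 and 3. Both carry the tagged protein and form a single group, so no treatment or genotype was compared, and no control chromatin was used here. The embryos were pooled and all their tissues were sampled together, so a peak cannot be placed in a cell type. Sequencing depth is unknown, since the files list regions and not reads, and intervals on shares cover counting error over peaks only.

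ERR is a nuclear receptor that can bind as a monomer to an extended version of the hormone-receptor site, AAGGTCA preceded by further bases. In fly embryos it is known for switching on genes of glycolysis and other sugar metabolism. Fly genes are often arranged head to head, with a minus-strand gene starting to the left and a plus-strand gene to the right of a short common stretch, an arrangement called divergent. Many such promoters serve housekeeping genes and carry the sites of DREF (DNA replication-related element factor) or of M1BP (motif 1 binding protein).

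The sequences of 5 of the most strongly bound divergent stretches are shown because they let the common DNA of each gene pair be read directly. Each is the longest run without an annotated exon between the starts nearest the summit, on the plus strand of dm6 from the NCBI RefSeq release 6 genome. Capitals mark TATCGATA, the DREF site.
CG11882/Pglym78: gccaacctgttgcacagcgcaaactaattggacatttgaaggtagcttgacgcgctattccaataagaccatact
Chro/Ssl1: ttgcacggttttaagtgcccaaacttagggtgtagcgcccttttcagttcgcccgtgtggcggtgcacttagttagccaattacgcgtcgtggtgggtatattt
Fbw5/CG9147: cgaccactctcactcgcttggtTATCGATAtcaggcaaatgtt
Atat/Shc: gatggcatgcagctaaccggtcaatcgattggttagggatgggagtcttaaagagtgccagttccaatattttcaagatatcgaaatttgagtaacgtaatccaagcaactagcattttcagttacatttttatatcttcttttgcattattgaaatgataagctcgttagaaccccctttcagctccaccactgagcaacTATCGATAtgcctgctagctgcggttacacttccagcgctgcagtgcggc
Art3/mRpS10: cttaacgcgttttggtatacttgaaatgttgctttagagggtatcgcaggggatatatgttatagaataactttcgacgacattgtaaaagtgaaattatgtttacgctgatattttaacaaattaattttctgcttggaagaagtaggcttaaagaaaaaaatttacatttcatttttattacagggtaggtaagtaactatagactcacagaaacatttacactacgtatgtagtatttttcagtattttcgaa
These stretches lie at 3R:29148173-29148247, 3L:22878985-22879088, 2L:6065954-6065996, 3L:9426759-9427009 and 3R:15229409-15229664 in the order given. They are 75, 104, 43, 251 and 256 bases long. The summits of the Atat/Shc and Art3/mRpS10 peaks fell at bases 138 and 107 of their stretches. The summits of the other 3 fell outside the stretch shown, in annotated exons, at 54 bases past its right end for CG11882/Pglym78 and 98 bases past it for Fbw5/CG9147. None of the 5 stretches held AAGGTCA, the core of the ERR site, or GGTCACACT, the M1BP site. Stretches read at Tcs5/CHMP2B, CG8372/CG8360 and CG7601/CIA30 held no TATCGATA and are not shown.

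The highest of all 2892 peaks was a shared promoter peak. The region between CG11882 and Pglym78 (FBgn0014869, phosphoglycerate mutase of glycolysis; 3R, 29147908 to 29148620) had a signal of 3946 in the pooled list, with 2317 in replicate 2 and 1645 in replicate 3. Signal is the peak caller's own unit, and it is not scaled between lists. The region ranked 1 in the pooled list and in both replicates, and its summit lay 41 bp from a Pglym78 start and 129 bp from the CG11882 start. A gap separated it from the other shared promoter peaks, of which the second, Chro/Ssl1, had a signal of 788.

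Chro encodes a chromodomain protein of interband chromatin, and Ssl1 a subunit of the general transcription factor TFIIH. Their peak (3L, 22878706 to 22879086) had 443 in replicate 2 and 347 in replicate 3 and ranked 21 in each. Fbw5, an F-box protein gene, and CG9147 shared a peak with signals of 657 pooled, 383 in replicate 2 and 284 in replicate 3. The gene of the mitochondrial ribosomal protein mRpS23 and CenG1A, which encodes an Arf GTPase-activating protein, shared a peak with 655, 385 and 276 in the same lists. These 3 peaks stood in the top 31 regions of each replicate.

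Tcs5, a gene of the KEOPS complex that modifies transfer RNA, and CHMP2B, of the membrane-severing ESCRT machinery, shared a peak with a pooled signal of 621, with 359 in replicate 2 and 263 in replicate 3. Atat, a tubulin acetyltransferase gene, and Shc, a signalling adaptor gene, had 620, 379 and 245. CG8372/CG8360 had 538 pooled, CG5757/CG5098 had 483 and CG7601/CIA30, where CIA30 encodes an assembly factor of respiratory complex I, had 479. Panx, a gene of piRNA-guided silencing, and CG9485 shared a peak of 477, Art3/mRpS10 one of 477, and Pdrg1/Pal1 one of 463. All 12 of these strongest shared promoter peaks were divergent, and all 12 lay within the highest 69 regions of both replicates.

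Below these leaders the shared promoter peaks differed little in signal from other peaks. Their median signal was 102 (quartiles 81.4 and 143; range 69.2 to 3946), against 96.9 (79.2 and 138) at single-gene promoters, 96.8 at peaks away from starts and 97.8 over all peaks. The ratio of the shared to the single-gene median was 1.05, and it was 1.07 in replicate 2 and 1.01 in replicate 3 for the same peaks. The SD of those 2 ratios was 0.044, so the excess in signal was of the same order as the difference between replicates. The ratio was 0.999 with a distance of 1000 bp, 1.18 with 200 bp and 1.06 with only the 5′-most start of each gene. It was 1.02 with replicate 3 alone and 1.06 with replicate 2 alone. Its size thus varied with the distance, and its direction is not settled by these data. Among the higher-signal 50% of peaks it was 0.988, but that cut selects on signal itself and cannot decide the direction. Of the shared promoter peaks, 305 of 562 (54.3%) lay in the upper 50% of signal, against 560 of 1148 single-gene peaks (48.8%). Among the 100 highest peaks 18 were shared and 50 single-gene.

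**Figure D1:**
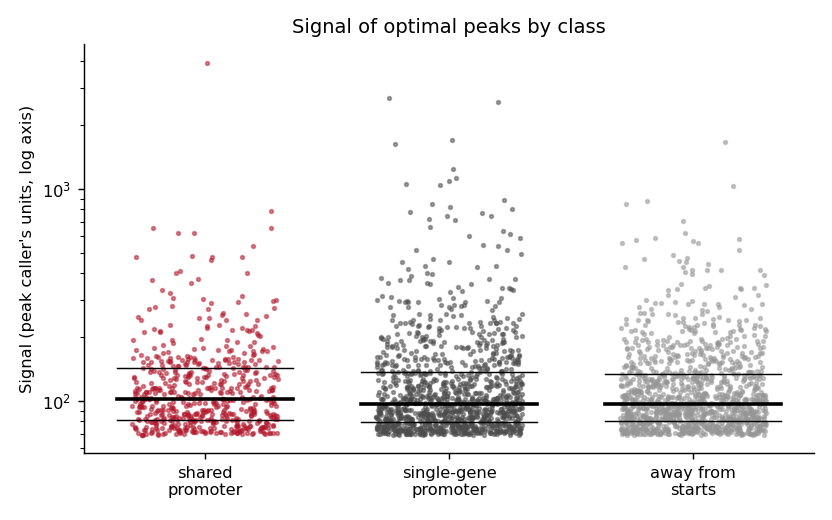
Signal of each optimal peak on a log axis in the peak caller's units, for the 562 shared promoter peaks, the 1148 single-gene promoter peaks and the 1182 peaks away from starts. Thick lines are medians (102, 96.9 and 96.8), thin lines are quartiles, and the highest point is CG11882/Pglym78 at 3946.

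Peaks were dense where starts of several genes crowd. Positions within 500 bp of starts of 2 or more genes cover 1.98 Mb of the main chromosome arms, 12.9% of all bases within that distance of a start, and held 283 summits per Mb. Positions near the starts of 1 gene cover 13.3 Mb and held 86.0 summits per Mb, and the main arms as a whole held 21.6. The density at shared positions was 3.29 times that at single-gene positions (counting interval 2.98 to 3.64). It was 3.13 times with replicate 3 alone and 3.42 times with replicate 2 alone. Counted by stretch, 536 of 3049 stretches near 2 or more genes held a summit (17.6%), against 1087 of 15789 stretches near 1 gene (6.88%). A stretch near several genes is not the same length as one near a single gene, and the densities per Mb allow for that.

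Counted by gene, 1370 of the 5985 genes with another gene's start within 1000 bp of their own had a promoter peak (22.9%), against 735 of the 7960 genes without such a neighbour (9.23%). In all, 1111 genes had a shared promoter peak, which is 7.97% of the 13945 protein-coding genes, and 2105 had a promoter peak of either kind, which is 15.1%. So 52.8% of the genes with any promoter peak had a shared one. Genes counted this way share peaks with one another and are not independent. A shared peak counts once for each of its genes, which raises the 22.9% and the 52.8%. Counted by peak, 32.9% of promoter peaks were shared.

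**Figure D2:**
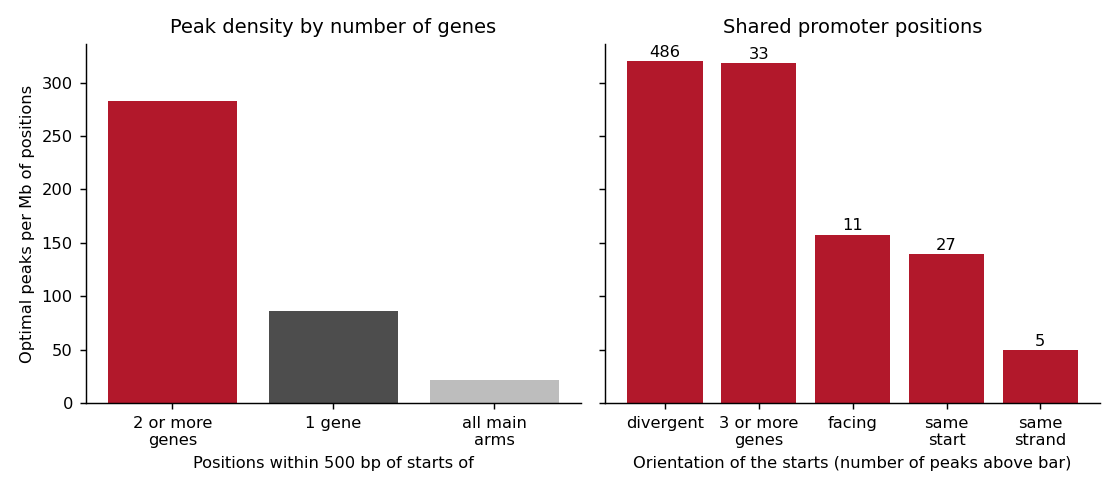
Optimal peaks per Mb of genome positions. Left, positions within 500 bp of starts of 2 or more genes (283), of 1 gene (86.0) and all main arms (21.6). Right, shared positions by orientation of the starts, with the number of peaks above each bar, where divergent positions and those near 3 or more genes stand highest (320.1 and 318) and same-strand positions lowest (50.05).

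The arms differed. Chromosome arm 3R held 174 of the shared promoter peaks, at 352 per Mb of shared positions, and 40% of its promoter peaks were shared. The X held 56, at 193 per Mb, and 22.0% of its promoter peaks were shared. Arms 2L, 2R and 3L held 278, 276 and 281 per Mb. At single-gene positions 3R and X had nearly the same density, with 83.1 and 86.4 peaks per Mb. Chromosome 4 had no shared promoter peak among its 5 promoter peaks, for which the Wilson interval reaches 43.4%.

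Divergent starts were found at 486 of the 562 regions, or 86.5% (83.4 to 89.1%). Peaks near 3 or more genes numbered 33, genes that begin at the same base 27, gene pairs facing one another across overlapping 5′ ends 11 and genes following one another on the same strand 5. Divergent positions make up 76.5% of all shared bases and held 320.1 peaks per Mb. Positions near 3 or more genes held 318 per Mb, facing pairs 158, common starts 140 and same-strand neighbours 50.05. The same-strand value rests on 5 peaks and the facing value on 11.

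Over the 486 divergent peaks the 2 starts were a median of 262 bp apart (quartiles 126 and 346, range 6 to 857). The rule bounds this spacing, since both starts must lie within 500 bp of the summit. Peaks were densest where the starts lay 200 to 299 bp apart, with 391 per Mb, and 300 to 399 bp apart, with 389.9. The density was 312 per Mb for spacings of 0 to 99 bp, 279 for 100 to 199 bp, 318 for 400 to 499 bp and 148 for spacings from 500 bp upward. Signal hardly followed spacing, with a Spearman rho of -0.07 over the 486 peaks, a description of peaks that share the same libraries.

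The summits sat between the starts in 385 of the 486 divergent peaks, or 79.2% (75.4 to 82.6%). The share of all divergent positions that lie between the starts was not computed, so the 79.2% has no baseline. The nearer start was a median of 55 bp from the summit and the farther one 198.5 bp, where the rule caps both at 500 bp. In 51.0% of the divergent peaks both starts lay within 200 bp of the summit. Neither strand was favoured, as the plus-strand start was the nearer one in 51.4% of them (47.0 to 55.9%). Among summits between the starts, the median position was 0.52 of the way from the minus-strand to the plus-strand start. Single-gene summits lay farther from their nearest start, at a median of 103.5 bp, against 57 bp over all shared promoter peaks. A summit near several starts has more starts to lie close to, so these 2 medians do not have the same baseline. A summit downstream of its nearest start was found in 20.8% of divergent peaks, against 30.6% of single-gene promoter peaks.

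**Figure D3:**
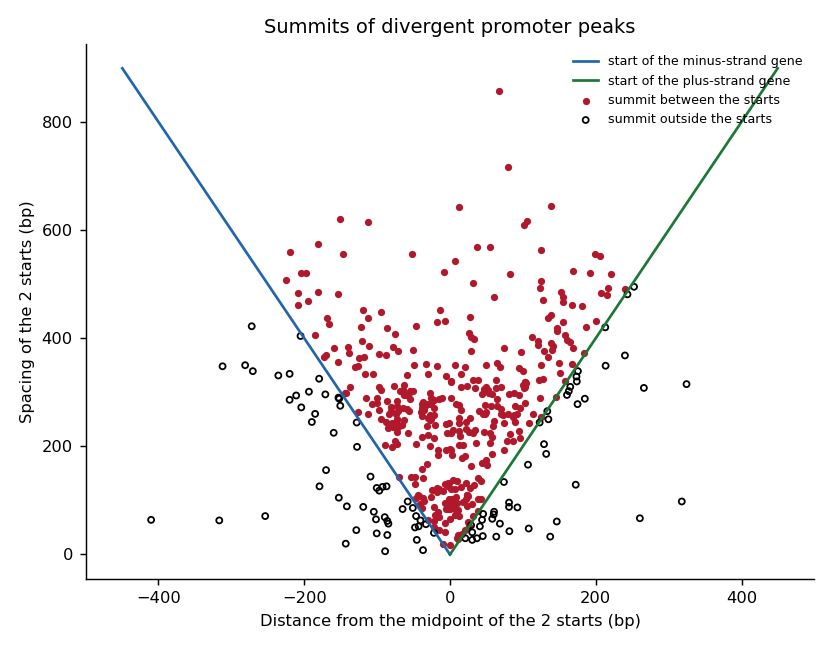
Each of the 486 divergent promoter peaks is a point, with the spacing of its 2 starts in bp on the vertical axis and the distance of the summit from their midpoint in bp on the horizontal axis. The coloured lines mark the minus-strand and plus-strand starts, and 385 summits (filled) lie between them.

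The closest divergent starts with a peak were 6 bp apart, at CG3032/CG4593, with a signal of 72.2. SerRS, which charges serine transfer RNA, and CG17260 start 8 bp apart and had a signal of 168. The starts of ox, a subunit gene of respiratory complex III, and Dgkepsilon, a diacylglycerol kinase gene, lie 17 bp apart, and the peak had 85.8. MED6, a Mediator subunit gene, and Naa80 start 19 bp apart with 157, and Taz, the tafazzin gene of cardiolipin remodelling, and mRpL18 start 20 bp apart with 129. Signals at these 5 pairs lay on both sides of the shared median of 102.

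Genes beginning at the same base had a median signal of 87.2 over 27 peaks, against 102 over the 486 divergent peaks. The strongest was at Sesn, the sestrin gene of nutrient sensing, and CG46429, with a signal of 373, 175 in replicate 2 and 192 in replicate 3. CG44286/CG8788 had 297 and CG7694/fray, where fray encodes a kinase of ion transport, had 248. Adh, alcohol dehydrogenase, and its neighbour Adhr are annotated from a common start, and 2 peaks lay before it. The stronger Adh/Adhr peak had 270 pooled, 148 in replicate 2 and 126 in replicate 3, with its summit 464 bp from the start, and the weaker had 148 pooled with its summit 264 bp away.

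Facing pairs had a median signal of 81.2. Adck1/CG4741 led with 334, and Cyt-c-d, which encodes a cytochrome c, with CG31808 had 145. CG8036, a transketolase gene, and p, the pink eye-colour gene, had 112, and CG15701/CG15706 had 82.8. The 5 same-strand peaks ran from 78.8 at CG42806/CtsL1, where CtsL1 is a cathepsin L gene, to 120 at Tsp42Ea/CG30159, a tetraspanin gene and its neighbour. Between them were CG46428/CG14480 with 106, Prim1/CG7083, which includes a DNA primase subunit gene, with 95.8, and chb/AsnS, which includes asparagine synthetase, with 86.7.

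Most regions, 529 of 562, lay near 2 genes, 29 near 3 and 2 near 4. The region with 5 genes, at PIG-M, a gene of GPI-anchor synthesis, CG42379, CG42380, CG42381 and NC2alpha, a transcription repressor subunit gene, had a signal of 241, with 111 in replicate 2 and 131 in replicate 3. The region with 10 genes lay among the pre-mod(mdg4) units of 3R, which are annotated as separate genes and supply alternative ends of the mod(mdg4) insulator protein by trans-splicing. It had a signal of 156, with 88.6 in replicate 2 and 64.4 in replicate 3. The 4-gene regions included COX6B, of respiratory complex IV, with 145, and Tim10, of mitochondrial import, with 86.4. Next to the 5-gene region the strongest regions near 3 or more genes were CG34140/Mkp/Mtch with 190, Pax/Alp12/CG13085 with 165 and mRpL47/CG8176/Kdm3 with 163. The 33 regions near 3 or more genes had a median signal of 114.

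The 562 regions covered 535 different sets of genes, because 27 sets had 2 peaks each. In 24 of these 27 sets the 2 summits lay 199 to 208 bp apart, close to the summit-to-edge distance of 202 bp that the peak caller gave most regions. Of the shared promoter peaks 26 (4.63%) lay 180 to 220 bp from a stronger summit, against 37 single-gene promoter peaks (3.22%). Whether such neighbours are separate peaks was not tested. Leaving them out gave 536 shared promoter peaks, 32.5% of promoter peaks, of which 86.9% were divergent.

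The 2 replicates listed nearly all of these promoters, with different signals. Of the 562 regions 401 (71.4%, 67.5 to 74.9%) overlapped the 2892 highest regions of both replicates, against 788 of 1148 single-gene promoter peaks (68.6%) and 70.0% of all peaks. A further 104 overlapped only those of replicate 2, 48 only those of replicate 3 and 9 neither. The share was thus close to that of peaks in general. All of these peaks were picked for agreement between the replicates, so high recovery was largely set in advance. All 562 had an overlapping region in the full list of replicate 2 and 561 in that of replicate 3. Atg8a/BTBD9, of which Atg8a is an autophagy gene, was the exception, with a signal of 76.0 pooled and 72.0 in replicate 2. Signals ran higher in replicate 2 in 487 of 561 regions, by a median ratio of 1.41, against 1.33 for single-gene promoter peaks and over all peaks. Replicate signals had a Spearman rho of 0.60 across the 561 regions. The lists are not scaled to each other, so the ratio does not compare binding.

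**Figure D4:**
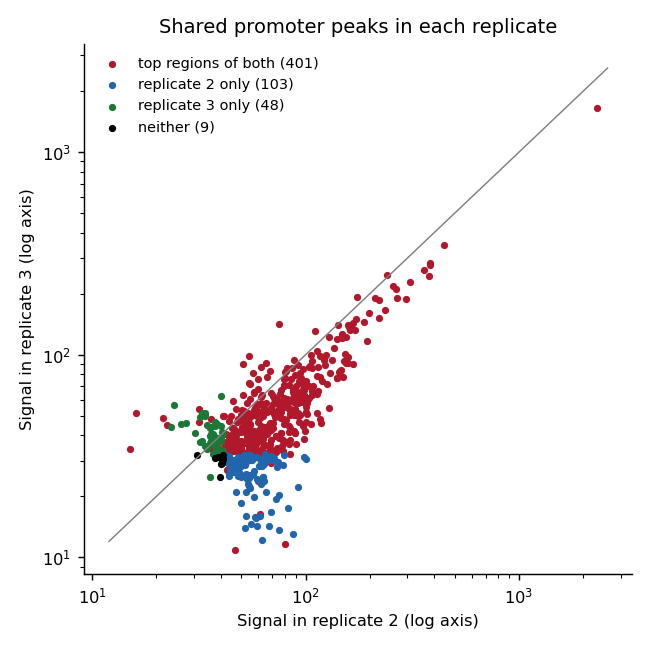
Signal of 561 shared promoter peaks in replicate 2 (horizontal) and replicate 3 (vertical), both log axes, taken from the replicate region of nearest summit, with the line of equal values. Colours show whether a peak overlaps the 2892 highest regions of both replicates (401), of replicate 2 only (103 of the 104 such peaks, as Atg8a/BTBD9 has no value in replicate 3), of replicate 3 only (48) or of neither (9).

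The peaks of highest rank that lay outside the 2892 highest regions of one replicate were of moderate signal. Dref/RpL13 had a pooled signal of 133 and ranked 440 in replicate 2 and 3266 in replicate 3, with signals of 100.04 and 30.6 there. This region lies at the gene of DREF itself and of a ribosomal protein. Alh/CG10098 ranked 456 in replicate 2 and 3098 in replicate 3, and CG3337/Nelf-A, of which Nelf-A encodes a subunit of a pausing factor of RNA polymerase II, 539 and 6218. In the other direction, CG33635/spen ranked 3002 in replicate 2 and 688 in replicate 3, CG5498/fbl 4121 and 1050, and Sema1b/HPS4 3737 and 1525.

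The genes at shared promoter peaks were read by function from 15 lists, chosen with earlier results of these data known. The values below are counts beside the 7.97% of all protein-coding genes with a shared peak and the 15.1% with a promoter peak of either kind. Closely spaced starts are needed for a shared peak, and 42.9% of all genes have a neighbouring start within 1000 bp, so the number of listed genes with such a neighbour is given too. Of the 5985 genes with such a neighbour 1111 had a shared peak (18.6%).

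Genes of protein synthesis and breakdown had many shared peaks. Of 93 cytosolic ribosomal protein genes 25 had one (26.9%), 48 had any promoter peak and 59 had a neighbouring start. RpL7, next to Ripalpha, had a signal of 359, with 198 in replicate 2 and 161 in replicate 3. RpS28a/Axn followed with 246, RpL14/Nelf-E with 228 and RpL41/NaCP60E with 221. The lowest of the 25 was RpL31/CG12929 with 69.8. Of 75 mitochondrial ribosomal protein genes 18 had a shared peak (24.0%) and 20 any promoter peak, with 61 having a neighbouring start. mRpS23 and mRpS10, given above, led them, followed by mRpL23/CG9004 with 305 and mRpL47 with 163.

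All 10 proteasome genes with a promoter peak, of 48 listed, had a shared one (20.8%), and 26 of the 48 had a neighbouring start. Rpn6/ave had 144, Rpn5/Hat1 also 144, Rpt5/RanBP3 142 and Prosbeta1/Rrp42 126. Likewise all 8 transfer RNA synthetase genes with a promoter peak, of 33 listed, had a shared one (24.2%), with 25 of the 33 having a neighbouring start. They were led by SerRS with 168, ArgRS/CG8578 with 153, IleRS/Hem with 149 and GluProRS/AP-1sigma with 119. Of 44 translation initiation genes 7 had a shared peak, 13 any and 23 a neighbouring start, the highest being eIF4EHP/CG18428 with 140.1, eIF3a/CG1074 with 122, eIF2gamma with 109 and eIF1 with 109. Among all genes with a promoter peak 52.8% had a shared one.

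Of 91 oxidative phosphorylation genes 13 had a shared peak (14.3%), 16 any promoter peak and 54 a neighbouring start. ND-ASHI, of complex I, shares its promoter with Fum1, the fumarase of the TCA cycle, and this peak had 242, with 152 in replicate 2 and 93.2 in replicate 3. ND-MWFE/TppII had 172, ND-51/CG13994 161 and ATPsynF/CG3548 152. Of 21 TCA cycle genes 3 had a shared peak (14.3%), 9 any and 14 a neighbouring start, with mAcon1, an aconitase, at 158 and Idh3g/CG4743 at 101.1. Both mitochondrial import genes with a promoter peak, of 16 listed and 7 with a neighbouring start, had a shared one, Tom7 with 149.5 and Tim10. Of 33 vacuolar ATPase genes 5 had a shared peak (15.2%), 7 any and 15 a neighbouring start, led by Vha55/Snx3 with 225 and Vha100-2/Vti1b with 193, then Vha36-1/CG8187 with 123 and Vha44/Hmgs with 90.9.

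Of 13 glycolysis genes 12 had a promoter peak but 2 a shared one, and 6 had a neighbouring start. Besides Pglym78 the second was Pgk/Bacc (2L, 2753135 to 2753245), at a start of the phosphoglycerate kinase gene Pgk that it shares with Bacc, with a signal of 120 pooled, 79.2 in replicate 2 and 45.6 in replicate 3. Among the 9 genes of trehalose and glycogen, 8 carried peaks at a promoter, 2 carried a shared one and 3 had a neighbouring start. The shared ones were UGP/Svip with 153 and Gyg/CG44245, at the glycogenin gene, with 134. Of 6 pentose phosphate genes 4 had a promoter peak, 3 a neighbouring start and 1, CG8036, a shared peak. Glycolysis genes had a promoter peak in 92.3% of cases and a shared one in 15.4%, against 26.7% and 24.0% for mitochondrial ribosomal protein genes. A neighbouring start was found for 6 of the 13 and for 61 of the 75, so the 2 shared shares do not have the same baseline.

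Nuclear receptor genes had 3 shared peaks among 21 genes, with 8 having any promoter peak and 6 a neighbouring start. ERR itself, with the autophagy gene Atg18a, had a signal of 162 (3L, 8186861 to 8186987), with 93.3 in replicate 2 and 74.5 in replicate 3, and the summit lay 225 bp from an ERR start and 39 bp from an Atg18a start. Hr96/EMC6 had 158, and usp/CG4313, at the gene of the RXR homologue ultraspiracle, had 102. Of 24 chromatin genes 4 had a shared peak, Chro, pzg/CG12974 with 148, Dref with 133 and Cp190/CG4338 with 120, while 9 had any and 14 a neighbouring start. Of 37 replication and repair genes 3 had one (8.11%), against 7.97% of all genes. With a neighbouring start were 28 of the 37, and 18.6% of all genes with such a neighbour had a shared peak. The 3 included PolD2/CG13933 with 155 and PCNA2/CG10366 with 93.4. Regions with a listed gene on both sides numbered 3, namely ND-ASHI/Fum1, Dref/RpL13 and RpL28/eIF1 with 109.

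Motifs were read as exact letters on both strands within 100 bp on either side of each summit. The ERR site TNAAGGTCA was present in 2 of 562 shared promoter peaks (0.356%, 0.0976 to 1.29%), against 18 of 1148 single-gene promoter peaks (1.57%, 0.994 to 2.46%) and 27 of 1182 peaks away from starts (2.28%). Windows of the same length on all protein-coding starts held it in 0.353%. In replicate 3 alone it was in 0 of 519 shared promoter regions, for which the Wilson interval reaches 0.735%, against 1.70% of single-gene ones. In replicate 2 alone it was in 4 of 595 (0.672%), against 1.28%. Its core AAGGTCA, which lies inside the longer motif, was in 7 shared promoter peaks (1.25%) and 46 single-gene ones (4.01%), with 1.22% of windows on all starts. In windows of the same size at the middle of shared stretches without a summit the shares were 0.597% and 2.15%. Such windows do not sit on summits, so shares given for these stretches differ from those of peaks in window placement too. None of the 305 shared promoter peaks among the higher-signal 50% of peaks held the longer motif, for which the Wilson interval reaches 1.24%. A reading with 1 mismatch allowed was added after seeing the data. The shares were 9.96% at shared peaks, 14.2% at single-gene peaks, 18.4% away from starts and 12.7% in shared stretches without a summit. Among the 281 shared promoter peaks of higher signal the share was 8.90%. Of the 12 shared promoter peaks of highest signal 3 held such a match (25%, 8.89 to 53.2%).

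Both ERR sites are shown, on the strand that reads AAGGTCA, with the motif in capitals and 10 bases on either side.
CG6693/RpL3: tgagatgggtTTAAGGTCActtttcgcag
SmydA-3/porin: aatctgcttgTCAAGGTCAtcgtcaacga
They lie at 3R:11221782-11221810 and 2L:10850012-10850040 on dm6, both on the minus strand. Their centres were 95 and 31 bp from the summit. The peaks were of ordinary signal, with 95.1 at the ribosomal protein gene RpL3 and 80.7 at porin, which encodes the voltage-dependent anion channel of mitochondria. At CG6693/RpL3 the replicates gave 56.5 in replicate 2 and 39.8 in replicate 3, and at SmydA-3/porin 52.1 and 30.1. The first has its starts divergent and the second facing.

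The other 5 regions with AAGGTCA were Panx/CG9485, the stronger Adh/Adhr peak, CG8036/p, CG45064/CG45065 with 90.4 and PDCD-5/MED10 with 81.4. In 1 of the 7 the letters shared bases with GGTCACACT. At single-gene promoters the median signal was 142 for the 46 peaks with AAGGTCA, against 96.4 without it. At shared promoters it was 95.1 for 7 peaks, against 102 without it. The difference between these classes was not tested, as peaks are not replicates.

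The DREF site TATCGATA was in 80 of 562 shared promoter peaks, or 14.2% (11.6 to 17.4%), against 76 of 1148 single-gene promoter peaks, or 6.62% (5.32 to 8.21%). Windows at the middle of shared stretches without a summit held it in 6.01%, windows on all starts in 6.45% and peaks away from starts in 0.338%. In replicate 3 alone the shares were 13.7% at shared and 5.11% at single-gene promoter regions, and in replicate 2 alone 14.1% and 7.43%. Of the 486 divergent peaks 75 held it (15.4%), and in 64 of these it lay between the starts. Its centre was a median of 34.5 bp from the summit at shared and 38.5 bp at single-gene promoters. It was in 15.3% of the 281 shared promoter peaks of higher signal and in 13.2% of the 281 of lower signal, against 4.18% and 9.06% of the 574 single-gene peaks on each side. Median signal was 106 with the site and 102 without it at shared promoters, against 89.0 and 98.1 at single-gene promoters.

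DREF sites are shown for 6 of the 8 shared promoter peaks of highest signal that carry one within 100 bp of the summit. They are on the plus strand of dm6, with the site in capitals and 10 bases on either side, so that the bases around the palindrome can be compared.
Atat/Shc: actgagcaacTATCGATAtgcctgctag
GCS2beta/CG5131: tagagacaacTATCGATAgcaacgggca
CG42359/Nsun5: atcacgacttTATCGATAtatgcttatc
ArgRS/CG8578: acacgtcgccTATCGATAacgataacag
IntS6/Rtel1: cactgtactcTATCGATAgcgataactg
Hem/IleRS: cggaacctacTATCGATAtcgcgaaccc
The printed sequences, flanking bases included, begin at 3L 9426950, 2L 17484292, 3R 19162292, X 15844162, X 5747745 and 3L 22288613. The peak signals were 620 at Atat/Shc, 278 at GCS2beta/CG5131, 194 at CG42359/Nsun5, 153 at ArgRS/CG8578, 152 at IntS6/Rtel1 and 149 at Hem/IleRS. Of these pairs CG42359/Nsun5 begins at a common start, and the other 5 are divergent. The site was also in RpL41/NaCP60E with 221 and CG11180/FAM21 with 172, which are not shown. At Fbw5/CG9147 the site printed further above lay more than 100 bp from the summit, so that peak is not counted as carrying one.

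The M1BP site GGTCACACT was in 33 shared promoter peaks, or 5.87% (4.21 to 8.13%), against 47 single-gene ones, or 4.09% (3.09 to 5.40%), with 3.66% in shared stretches without a summit and 4.42% on all starts. The intervals of the shared and single-gene shares overlapped. The site was in 7 of the 281 shared promoter peaks of higher signal (2.49%) and in 26 of the 281 of lower signal (9.25%). Single-gene peaks went the same way, with 2.79% of the 574 of higher and 5.40% of the 574 of lower signal. Median signal was 81.4 with the site and 103 without it at shared promoters, against 88.4 and 97.5 at single-gene promoters. Together, DREF or M1BP sites were in 110 shared promoter peaks (19.6%), against 115 single-gene ones (10.02%), and both sites were in 3 and 8.

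M1BP sites of the 3 shared promoter peaks of highest signal that carry one are shown on the strand that reads GGTCACACT, with the site in capitals and 10 bases on either side.
Ripalpha/RpL7: tcggccaaacGGTCACACTggccgcggag
CG9356/BBIP1/CG8135: gacatgctctGGTCACACTggactgtggt
CG7130/RpLP0: ccatcgaagcGGTCACACTgggtgccgcc
They lie at 2L:10200979-10201007 and 3R:9404298-9404326 on the minus strand and at 3L:22076055-22076083 on the plus strand of dm6. The peak signals were 359, 159 and 156 in the order given. Their centres lay 33, 27 and 6 bp from the summits, and 2 of the 3 regions lie at ribosomal protein genes.

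The GAGA factor site GAGAGAG was rarer at shared promoters, in 8 of 562 (1.42%, 0.723 to 2.78%), against 117 of 1148 single-gene promoter peaks (10.2%, 8.57 to 12.1%). Shared stretches without a summit held it in 2.15% and all starts in 4.69%. The E-box CAGCTG was in 19.6% of shared promoter peaks (16.5 to 23.1%), against 12.6% of single-gene ones (10.8 to 14.7%), 11.6% of shared stretches without a summit and 13.4% of starts. The E-box CACGTG was in 3.56%, against 3.14%. TATAAA was in 27.4% (23.9 to 31.2%), against 19.3% (17.2 to 21.7%), while shared stretches without a summit held it in 37.0%. The median GC content of the windows was 38.8% at shared and 42.8% at single-gene promoter peaks, and the median distance to the nearest start was 57 and 103.5 bp. The part of either in these shares was not tested, nor that of window placement at the middle of stretches without a summit.

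**Figure D5:**
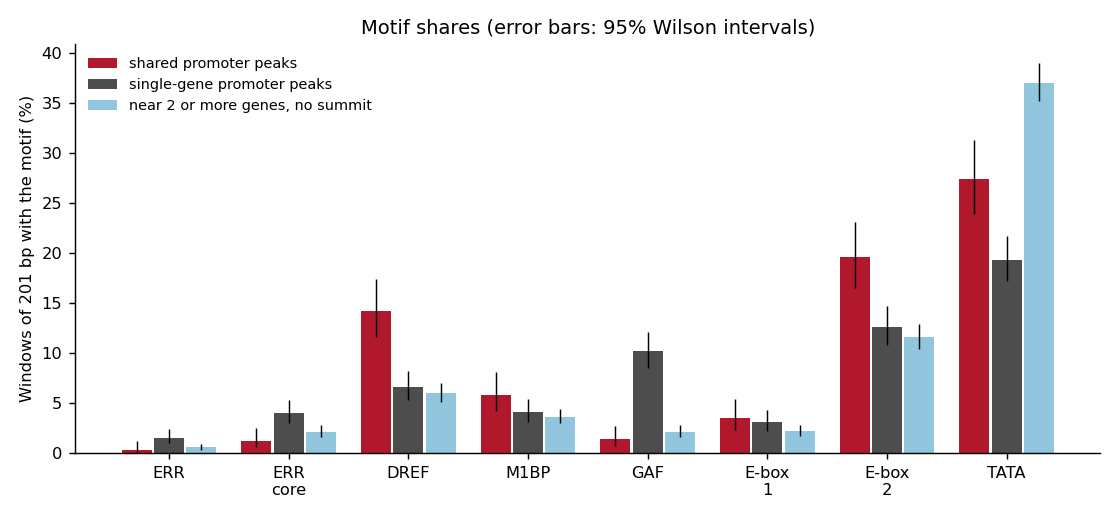
Share of windows reaching 100 bp on either side of the summit that hold each motif, with 95% Wilson intervals, at the 562 shared promoter peaks, the 1148 single-gene promoter peaks and 2513 shared stretches without a summit. Windows of the stretches without a summit are centred on the middle of the stretch. E-box 1 is CACGTG and E-box 2 CAGCTG, the DREF bar is higher at shared peaks (14.2%, against 6.62% at single-gene peaks) and the GAF bar lower (1.42%, against 10.2%).

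The distance of 500 bp sets the edge of the group. Just inside it were crp/pkaap, whose second gene's start lay 500 bp from the summit, with a signal of 182, Dp1/imd, also at 500 bp, with 87.0, and CG10931/sub at 496 bp with 82.5. Just outside it were Spase22-23/mask at 503 bp with 71.4, Vha100-2/Vti1b at 505 bp with 113 and CG13806/ecd at 506 bp with 80.7. Vha100-2/Vti1b is also among the 562 through another, stronger peak with 193. The second gene's start lay within 250 bp of the summit in 375 of the 562 regions (66.7%), and 198 of the 1148 single-gene promoter peaks (17.2%) had a second gene's start between 500 and 1000 bp away.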

How the data were processed

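ChIP-seq of eGFP-tagged ERR in whole embryos was deposited as region lists in the narrowPeak layout, with 30000 regions for each of the 2 replicates and for the pooled replicates, and an optimal set picked from them by irreproducible discovery rate, per the notes deposited with the files. The signal of a region is the peak caller's value as the authors deposited it, with no scaling between lists. The deposited −log10 q-value was 3.89 in every optimal peak, so ranks rest on signal. Neither aligner nor peak caller is named in the labels or notes, so their versions are unknown. The optimal set equalled the top 2892 regions by signal in the pooled list. Depth is unknown.

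Lists on build dm6 were used, and those on dm3 were not used here. Summits were set against transcript starts of protein-coding genes on the main arms (Ensembl release 115, BDGP6 version 54), with sequence from the NCBI RefSeq release 6 genome. Orientation was read from the starts nearest the summit. Replicate values come from the overlapping region of nearest summit, and a peak counted as recovered when it overlapped by at least 1 bp any of the 2892 highest regions of a replicate. Intervals are 95% Wilson intervals, and the interval of a density ratio treats peaks as counts. The labels give the replicates as biological, and with 1 group no test between samples was made and no p-value computed. The scripts, in Python 3.11.15 with numpy 2.4.6, scipy 1.17.1 and matplotlib 3.10.9, were tested on simulated data with planted starts, motifs and overlaps.

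The regions, the 15 gene lists, the 8 motifs and the alternatives were chosen with earlier results of these data known, and listed symbols that matched no gene model were left out. Peaks named are the 12 of highest signal, up to 4 of highest signal in each orientation class and gene list, those with the most genes, up to 6 with each of the ERR, DREF and M1BP motifs, the 3 of highest rank outside the highest regions of each replicate, the 5 divergent pairs of closest starts and the 3 on each side of the 500 bp edge. A region that this rule names is not reported here. The other 4-gene regions, the lowest ribosomal peak, Atg8a/BTBD9 and the further regions with AAGGTCA were named after their values were seen. Alternatives were the higher-signal 50% of peaks, distances of 200 and 1000 bp, 1 start per gene, windows reaching 50 and 250 bp, other overlap rules and each replicate alone.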

Additional observations from a re-analysis of the deposited data

How the results depend on the processing

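Of 60 alternative values, 35 stayed within the error of the reported value. No paired analysis was possible because the samples form 1 group. The signal ratio of shared to single-gene promoter peaks, 1.05, turned to 0.999 at a distance of 1000 bp and was 1.18 at 200 bp. It turned to 0.988 among the higher-signal 50% of peaks, a cut that selects on the signal being compared. In the higher-signal 50%, the shared share of promoter peaks was 35.3%, the share of shared stretches with a summit 9.71%, recovery in both replicates 95.1%, the M1BP share 2.95%, the ERR share 0 and the density ratio 3.66. At 200 bp the shared share was 21.6%, the stretch share 14.8% and the density ratio 3.85. At 1000 bp the shared share was 39.7% and the density ratio 2.48, and with the 5′-most start of each gene the shared share was 36.4%. Recovery was 55.3% at a reciprocal overlap of 50%, 63.0% with summits within 100 bp, 29.7% with 1000 highest regions and 93.4% with 5000. Windows reaching 50 and 250 bp gave DREF shares of 9.43% and 21.5%, against 3.83% and 9.84% at single-gene promoters, and M1BP shares of 3.20% and 11.4%. With 1 replicate left out, the stretch share ranged from 16.2% to 18.6% and the ERR share from 0 to 0.672%. The density ratio, the 1-mismatch reading and the removal of neighbours of stronger summits were added after seeing the data, and that removal left within error the 7 values for which it was run, which leave out recovery and the stretch share. Unknown depth and the lack of control chromatin limit what a low or missing signal shows. Keeping fewer of the same peaks can only lower the stretch share, and taking fewer or more highest regions can only lower or raise recovery. Shorter or longer windows can likewise only lower or raise motif shares. The causes of the other changes were not tested.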
